A study of Homo sapiens with 6 samples.

Results

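The interleukin-6 (IL-6) family of cytokine signalling was described through 10 genes in 2 human small cell lung cancer cell lines, H69M and H69. The 10 genes were 6 receptors (IL6ST, OSMR, LIFR, IL6R, IL11RA and CNTFR), 2 ligands (LIF and IL6), the transducer STAT3 and the feedback inhibitor SOCS3, taken from the 18404 genes that had a probe set with 1 gene symbol. All 10 were found, each with 1 probe set. They were selected on their place in the pathway and chosen by their measured log2 differences between H69M and H69, so those differences are given as a description, with no test. Total RNA of H69M cells (3 arrays) and of H69 cells (3 arrays) was hybridised to Affymetrix whole-transcript arrays. The labels name no treatment and no genotype, and do not say how H69M was obtained or whether the 3 arrays of a line came from separate cultures. H69 is an established line of classic small cell lung cancer, a neuroendocrine tumour type.

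Cytokines of the IL-6 family signal through gp130, the receptor subunit encoded by IL6ST. IL-6 and IL-11 first bind their own alpha receptors, IL6R and IL11RA, and then engage gp130 alone. LIF, oncostatin M and CNTF pair gp130 with LIFR, oncostatin M can also pair it with OSMR, and CNTF needs CNTFR as well. Kinases of the JAK family bound to these chains then phosphorylate STAT3, which enters the nucleus and switches on target genes. SOCS3, itself a STAT3 target, binds gp130 and ends the signal. In the lung the family is known for its part in inflammation and epithelial repair.

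All values are deposited log2 expression values, and a difference is H69M minus H69 on that scale, with the standard error (SE) of a limma fit over all genes. Array medians lay between 6.43 and 6.48. Across genes, r was 0.995 to 0.998 between arrays within a line and 0.938 to 0.950 between arrays of different lines. At a Benjamini-Hochberg adjusted p under 0.05 limma called 3866 genes higher in H69M (21.0% of genes) and 4274 lower (23.2%), and with each array centred on its median it called 3110 higher and 6827 lower. Of 10 measured neuroendocrine markers 8 were lower in H69M and 0 higher (0 also at an unadjusted limma p under 0.05), and their mean level per array was 9.22 to 9.54 in H69M and 10.04 to 10.08 in H69. All 10 fibroblast markers were higher in H69M, with a mean level per array of 8.91 to 9.28 in H69M and 5.40 to 5.48 in H69. Of 9 measured leukocyte markers 3 were lower in H69M and 0 higher (0 also unadjusted), with mean levels of 4.37 to 4.47 in H69M and 4.48 to 4.57 in H69. Of 8 endothelial markers 2 were higher in H69M (TEK and KDR) and CLDN5 was lower, with mean levels of 5.40 to 5.76 in H69M and 5.16 to 5.21 in H69.

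The signalling receptor chains were far apart between the lines. IL6ST, which encodes gp130, stood at 10.10, 10.39 and 10.50 on the H69M arrays and at 3.74, 3.61 and 3.83 on the H69 arrays. Every H69M array was thus far above every H69 array, and the difference of 6.60 ± 0.11 (SE), or 97.3-fold, ranked 9 among the upward differences of all 18404 genes. OSMR, the oncostatin M receptor chain, stood at 8.17, 8.57 and 8.94 in H69M and at 4.29, 3.62 and 4.34 in H69. The groups did not overlap, but both lines spread widely, with an SD of 0.38 in H69M and 0.40 in H69. The difference in OSMR was 4.48 ± 0.24 (SE), or 22.3-fold. LIFR, the chain that LIF binds before gp130 joins, stood at 9.19, 9.26 and 8.96 in H69M and at 5.70, 5.47 and 5.51 in H69. Its groups did not overlap either, and the difference was 3.58 ± 0.098 (SE), or 11.9-fold. The order of these differences, IL6ST over OSMR over LIFR, was the same in the 15 alternative fits that held all 3 genes. Many of these fits could not change it, because they alter only the error estimate or the gene set, or shift every gene alike.

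The fibroblast markers moved in the same direction as these receptors, and their part in the result was not tested. In bulk RNA a change in the share of cells that express a gene and a change in its RNA per cell cannot be told apart. Values of this kind carry no detection call, and a fold measured from a dim level such as that of IL6ST in H69 can understate the change.

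The ligand-binding alpha receptors did not share that rise. IL6R, which binds IL-6, stood at 6.02, 5.86 and 6.13 in H69M and at 5.69, 5.84 and 5.87 in H69. The arrays of the lines overlapped, and the difference was 0.20 ± 0.086 (SE). IL11RA, which binds IL-11, stood at 6.45, 6.25 and 6.16 in H69M and at 6.35, 6.38 and 6.35 in H69. Its H69M arrays lay on both sides of the H69 arrays, with a difference of -0.075 ± 0.080 (SE). CNTFR, the GPI-anchored receptor for CNTF and a gene of neural tissue, stood at 8.46, 8.15 and 7.68 in H69M and at 9.07, 9.09 and 8.83 in H69. All H69M arrays were below all H69 arrays. The difference in CNTFR was -0.90 ± 0.18 (SE), and it ranged from -1.08 to -0.69 when each array was left out in turn.

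**Figure D1:**
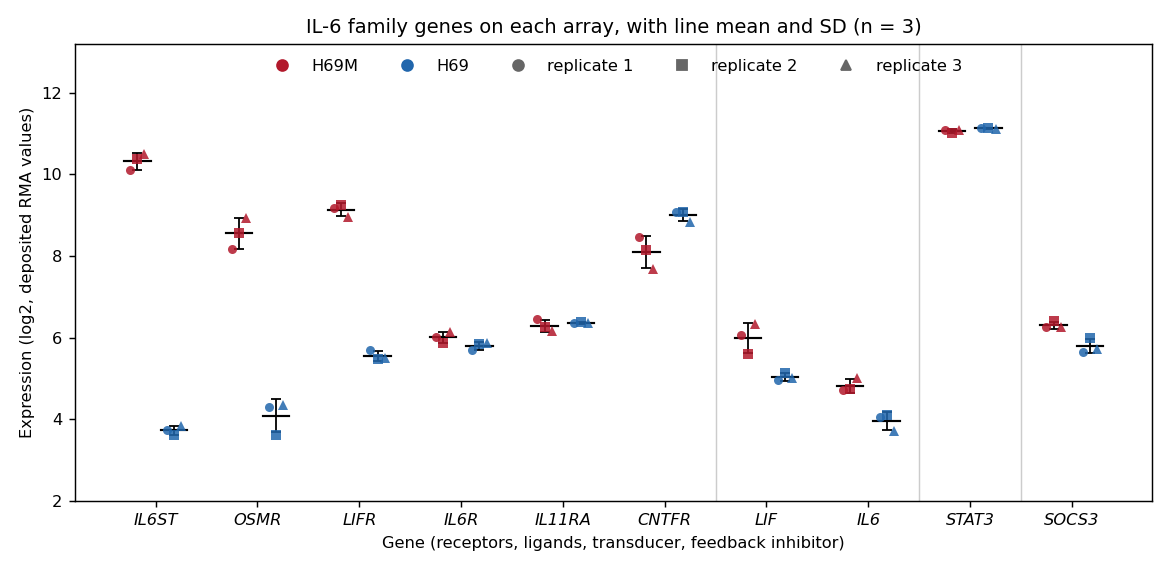
Deposited log2 expression of the 10 IL-6 family genes on each array, with H69M in red left of H69 in blue, marker shape for the replicate, and a bar for the mean and SD of 3 arrays. IL6ST, OSMR and LIFR stand at 8.17 or above on every H69M array and at 5.70 or below on every H69 array, whereas IL6R and IL11RA overlap, CNTFR is lower in H69M and STAT3 lies near 11 in both lines.

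Both ligand genes were dim and somewhat higher in H69M. LIF, whose protein acts through LIFR and gp130, stood at 6.06, 5.60 and 6.33 in H69M and at 4.96, 5.14 and 5.02 in H69. The groups did not overlap, with a difference of 0.95 ± 0.16 (SE), and the SD was 0.37 in H69M, against 0.091 in H69. IL6 stood at 4.72, 4.73 and 5.02 in H69M and at 4.06, 4.10 and 3.71 in H69. These groups did not overlap either, and the difference was 0.87 ± 0.13 (SE). Averaged over both lines, LIF and IL6 had levels below the 25th percentile of all genes (5.58), and the other 8 family genes were above it. In H69 alone the means of IL6ST (3.72), OSMR (4.08) and LIFR (5.56) were also below 5.58. The mean of LIF in H69M (5.99) was above it.

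STAT3, the transcription factor that carries the signal, was nearly level between the lines. It stood at 11.10, 11.01 and 11.08 in H69M and at 11.13, 11.15 and 11.12 in H69. The H69M arrays were all lower, but by little, with a difference of -0.068 ± 0.056 (SE), which was -0.16 with each array centred on its median. SOCS3 stood at 6.25, 6.40 and 6.27 in H69M and at 5.66, 5.98 and 5.72 in H69. Its groups did not overlap, with a difference of 0.52 ± 0.095 (SE), or 1.43-fold.

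For 8 of the 10 genes every H69M array lay on the same side of every H69 array, which was so for 55.8% of all genes. All H69M arrays were above in 6 (25.8% of all genes) and below in 2 (30.0%). The median difference was 0.69, against -0.041 for all genes. The H69M array with the highest value was replicate 3 for 5 of the 10 genes, replicate 1 for 3 and replicate 2 for 2. Replicate 3 was highest for OSMR, IL6ST, LIF, IL6 and IL6R, and lowest for CNTFR, LIFR and IL11RA.

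The stretches before the RefSeq starts of the 3 receptor genes with large differences are shown because these genes moved together, and that of IL6 because its control elements are a textbook case. Each is the 250 bases before the start (RefSeq, GRCh38.p14), 5′ to 3′ on the gene's own strand. Of the 10 genes 9 had such an entry, with 13 starts in all. In the receptor stretches capitals mark the GC box GGGCGG on either strand and a STAT-type element TTCNNNGAA. In IL6 they mark a C/EBP-type element TTGCNNAA and an NF-kB-type element, which is GGG, any 2 bases and TTTCC. LIFR has 3 listed starts, of which the GC-rich one and the one farthest upstream are given.
IL6ST, chr5:55994964-55995213, minus strand: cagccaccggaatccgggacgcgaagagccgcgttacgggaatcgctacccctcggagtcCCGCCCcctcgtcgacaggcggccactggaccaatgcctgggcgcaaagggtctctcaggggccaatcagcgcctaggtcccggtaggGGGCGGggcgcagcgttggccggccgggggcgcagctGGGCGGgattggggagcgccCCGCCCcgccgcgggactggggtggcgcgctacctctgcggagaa
OSMR, chr5:38845762-38846011, plus strand: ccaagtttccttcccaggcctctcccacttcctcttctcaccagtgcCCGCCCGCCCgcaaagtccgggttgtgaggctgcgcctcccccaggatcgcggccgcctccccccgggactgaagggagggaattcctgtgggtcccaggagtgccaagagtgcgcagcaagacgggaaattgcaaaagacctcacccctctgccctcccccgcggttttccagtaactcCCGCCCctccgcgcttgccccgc
LIFR, chr5:38556647-38556896, minus strand: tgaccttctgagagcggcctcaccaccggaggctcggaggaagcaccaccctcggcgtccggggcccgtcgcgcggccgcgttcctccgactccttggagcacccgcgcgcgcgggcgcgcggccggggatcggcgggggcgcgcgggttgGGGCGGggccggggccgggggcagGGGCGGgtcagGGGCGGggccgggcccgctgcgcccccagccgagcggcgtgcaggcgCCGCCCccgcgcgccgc
LIFR, chr5:38595406-38595655, minus strand: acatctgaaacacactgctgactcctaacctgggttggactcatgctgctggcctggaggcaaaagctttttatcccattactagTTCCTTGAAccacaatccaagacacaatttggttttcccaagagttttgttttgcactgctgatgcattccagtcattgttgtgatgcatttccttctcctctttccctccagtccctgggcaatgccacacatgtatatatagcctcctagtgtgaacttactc
IL6, chr7:22726950-22727199, plus strand: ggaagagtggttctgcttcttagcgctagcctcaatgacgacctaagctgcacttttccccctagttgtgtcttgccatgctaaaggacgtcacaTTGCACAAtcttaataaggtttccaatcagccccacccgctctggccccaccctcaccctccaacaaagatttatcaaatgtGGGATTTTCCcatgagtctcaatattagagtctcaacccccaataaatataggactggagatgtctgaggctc

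The IL6ST stretch was 73.6% G and C with 31 CpG dinucleotides, the OSMR stretch 66.4% with 17, and the GC-rich LIFR stretch 83.6% with 44, against medians of 58.0% and 11 over all 35116 starts. Values above both medians were also found before CNTFR, which was lower in H69M (77.6% with 38), IL6R (65.2% with 22) and STAT3 (64.4% with 18). The same was so for both starts of SOCS3, which was higher in H69M (71.6% with 30 and 62.8% with 13). The GC box was found 4 times in the IL6ST stretch, 3 times in OSMR (a pair of these share bases) and 4 times in the GC-rich LIFR stretch. It is a common element, present before 42.6% of all starts, and it was also found before IL11RA and STAT3, whose levels differed by less than 0.1. The STAT-type element was found before 6.57% of all starts and, among the family genes, only before the other LIFR starts, as TTCCTTGAA from -165 in the stretch farthest upstream and as TTCATCGAA from -182 in the one not shown. IL6 held the C/EBP-type element TTGCACAA from -155, with a background of 9.05%, and the NF-kB-type element GGGATTTTCC from -73, with a background of 1.73%. The C/EBP-type element was also found before OSMR and 1 start of LIFR. The AP-1 element TGANTCA was found before none of the 13 starts and before 6.57% of all, and the TEAD element CATTCC before 1 start each of LIFR and SOCS3 and before 11.9% of all. All motifs were searched on both strands, and a match is a description of the letters only.

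IL6ST, LIFR and OSMR lie on chromosome 5, with LIFR and OSMR next to each other among the measured genes and IL6ST beside IL31RA. The 2 nearest measured genes on each side of each family gene came to 36 genes outside the 10. Limma called 7 of them higher and 6 lower in H69M, against 21.0% and 23.2% of all genes. Next to LIFR, the matrix protein gene EGFLAM had a difference of 0.13 ± 0.071 (SE) and WDR70 fell by 0.27 (adjusted p = 0.00962). On the far side of OSMR, RICTOR, a subunit of the mTORC2 kinase complex, had -0.14 ± 0.054 (SE) and FYB1, an adaptor of blood cells, -0.024 ± 0.096 (SE). Beside IL6ST, the germ-cell helicase gene DDX4 had 0.070 ± 0.13 (SE), ANKRD55 had 0.22 ± 0.11 (SE) and the kinase gene MAP3K1 -0.16 ± 0.066 (SE). WDR70 was the only one of these 7 neighbours to pass the test. IL31RA, a dim gene that also lies beside IL6ST, passed as well and rose by 1.14 (adjusted p = 0.00487). Among the neighbours of the other genes, CAVIN1, a coat protein of caveolae beside STAT3, rose by 3.58 (adjusted p = 4.63e-07), and it was with IL31RA the only one of the 36 to rise at least 2-fold. IL6-AS1, which lies beside IL6, rose by 0.91 ± 0.25 (SE, adjusted p = 0.02).

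**Figure D2:**
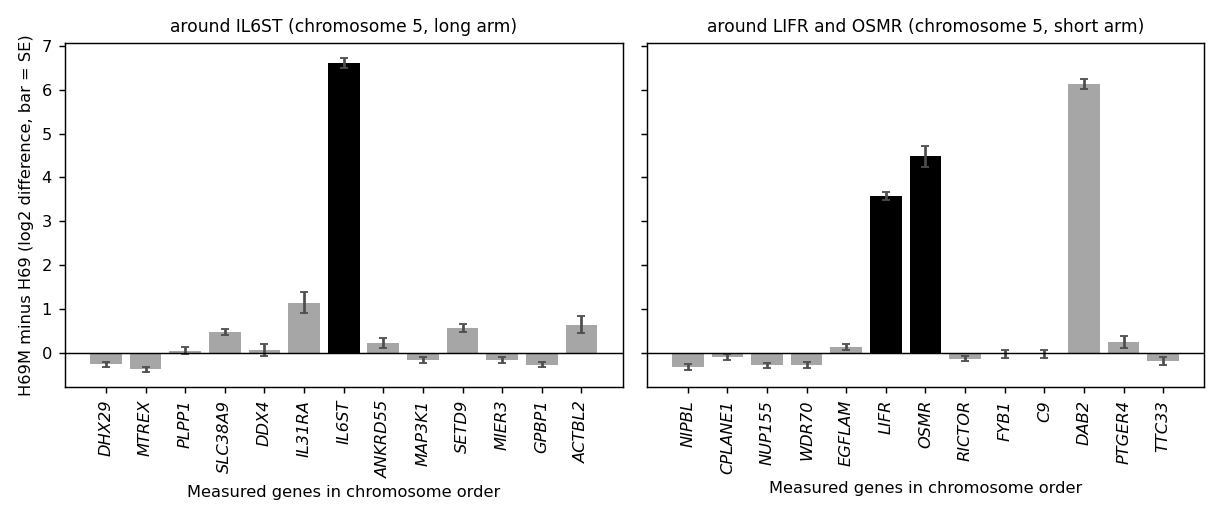
Log2 difference, H69M minus H69, of IL6ST (left panel) and of LIFR and OSMR (right panel), in black, and of the 6 nearest measured genes on each side of IL6ST and of OSMR, in grey, in chromosome order, with bars for the SE. The family genes reach 6.60, 3.58 and 4.48, and of the grey genes IL31RA and DAB2, an endocytic adaptor gene with 6.13, exceed 1.

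The profiles nearest to that of IL6ST over the 6 arrays, each gene centred on its own mean, belonged to ACTA2, smooth muscle actin (Euclidean distance 0.28), the receptor gene DCBLD2 (0.41) and VIM, vimentin (0.49). The nearest to OSMR were PDCD1LG2, which encodes the immune checkpoint ligand PD-L2 (0.39), the receptor kinase gene AXL (0.48) and HIVEP2 (0.52). LIFR was nearest to ME1, malic enzyme (0.25), RAB27B, a GTPase of secretory vesicles (0.31) and TGFB1 (0.33), and CNTFR to LHFPL3 (0.17), the WNT inhibitor gene APCDD1 (0.22) and SLC22A23 (0.26). The nearest to LIF was C3AR1, the receptor for complement C3a (0.23), to IL6 the fatty acid elongase gene ELOVL6 and the transcription factor gene FOXD1 (both 0.18), and to SOCS3 THAP10 and the GTPase gene RAC2 (both 0.10). With 2 lines the distance is set mainly by the difference between them.

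Among the other ligands and receptors of the family, small rises were found and no change approached that of IL6ST. Of 8 measured genes 4 were higher in H69M and 0 lower (0 also at an unadjusted limma p under 0.05). The list median was 0.094, and of all genes 21.0% were higher and 23.2% lower. IL31RA, which pairs with OSMR as the receptor for IL-31, stood at 4.42, 5.19 and 5.38 in H69M and at 3.67, 4.09 and 3.80 in H69, without overlap, and rose by 1.14 ± 0.23 (SE, adjusted p = 0.00487). It was dim in both lines, with means of 4.99 in H69M and 3.85 in H69, below the 25th percentile of all genes (5.58). IL11 stood at 7.23, 7.38 and 7.89 in H69M and at 6.58, 6.68 and 6.78 in H69, without overlap. It rose by 0.82 ± 0.16 (SE, adjusted p = 0.00365). EBI3, a subunit of IL-27, rose by 0.41 (adjusted p = 0.00966). CTF1, cardiotrophin-1, had 0.18 (adjusted p = 0.0334), a call lost without any one of the 6 arrays (adjusted p = 0.0566 to 0.109). With centred arrays the CTF1 difference was 0.089 (adjusted p = 0.191) and with quantile normalization again 0.12 (0.118). OSM, oncostatin M, stood at 5.29, 5.18 and 5.07 in H69M and at 5.32, 5.33 and 5.31 in H69, a difference of -0.14 (adjusted p = 0.135) that passed without H69M replicate 1 (adjusted p = 0.0458) and with centred arrays (0.0167). IL27, the other subunit of IL-27, had -0.23 (adjusted p = 0.139), which passed without H69M replicate 1 (0.0194) and with centred arrays (0.036). IL31 (-0.12) and IL27RA (0.0090) did not pass.

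Among the kinases and the other STATs, JAK1, STAT4 and STAT5B were higher in H69M. JAK1, the main kinase of gp130, stood at 9.68, 9.62 and 9.64 in H69M and at 8.99, 9.02 and 8.92 in H69. Its groups did not overlap, and it rose by 0.67 ± 0.057 (SE, adjusted p = 4.74e-05). Of the 8 measured genes 3 were higher and 1 was lower (of all genes 21.0% and 23.2%), with a median of 0.21. STAT4, best known from lymphocytes, was dim and rose by 0.99 ± 0.078 (SE, adjusted p = 3.06e-05), and STAT5B rose by 0.32 (adjusted p = 0.00584). TYK2 had -0.19 (adjusted p = 0.0354), a call lost without H69M replicate 1 or 2 or without any one H69 array (adjusted p = 0.0644 to 0.111). JAK2 (0.22), JAK3 (-0.021), STAT5A (0.20) and STAT6 (-0.15) did not pass, although JAK2 passed without H69M replicate 1 (adjusted p = 0.0368) and STAT6 with centred arrays (0.0261).

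The other inhibitors of the pathway were split in direction. Of the 14 listed, 3 passed upwards in H69M and 5 downwards (of all genes 21.0% and 23.2%), with a median of -0.0018. SOCS1, which blocks JAK kinases, stood at 7.62, 7.85 and 7.67 in H69M and at 7.01, 6.80 and 6.59 in H69, and rose by 0.91 ± 0.11 (SE, adjusted p = 0.000369). SOCS2, a brake on growth hormone signalling, fell by 0.78 (adjusted p = 8.13e-05), SOCS4 by 0.40 (adjusted p = 0.00126) and SOCS7 by 0.29 (adjusted p = 0.0102). CISH (-0.11), SOCS5 (0.13) and SOCS6 (0.14) did not pass, although SOCS6 did without H69M replicate 1 (adjusted p = 0.0375) and CISH with centred arrays (0.0479). PIAS3, named as an inhibitor of STAT3, had 0.25 (adjusted p = 0.0258). That call was lost without H69M replicate 1 (0.0642) or 2 (0.0531), or without H69 replicate 2 (0.0783) or 3 (0.0822), and with centred arrays (0.0751). PIAS2 fell by 0.65 (adjusted p = 0.000266), and PIAS1 (0.042) and PIAS4 (-0.045) did not pass. Of the phosphatases, PTPN1 rose by 0.26 (adjusted p = 0.00561), PTPN6 fell by 0.66 (adjusted p = 0.00329) and PTPN2 (0.048) did not pass.

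**Figure D3:**
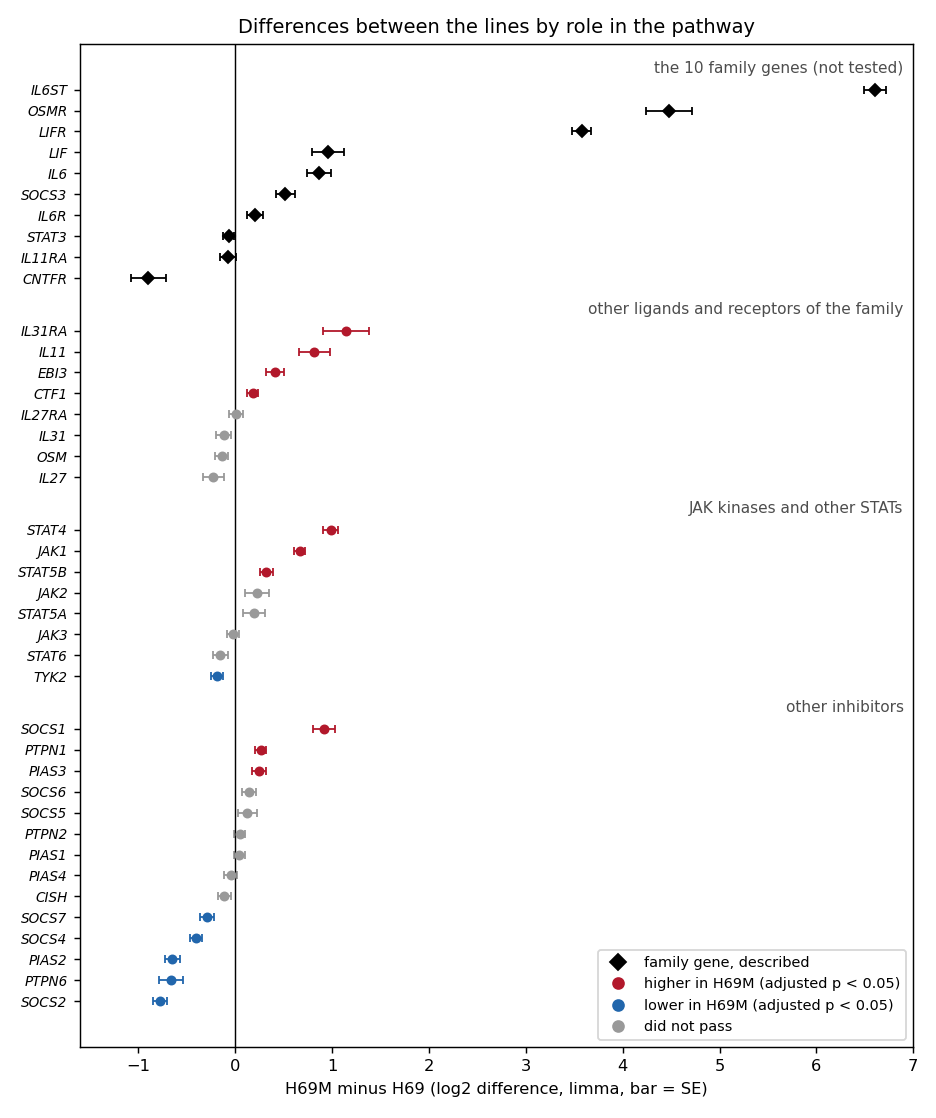
Log2 differences, H69M minus H69, with limma's SE as bars, for the 10 family genes (black diamonds, not tested) and for the other ligands and receptors, the JAK kinases and other STATs, and the other inhibitors (red higher, blue lower, grey did not pass). Outside the 10 family genes the values lie between -0.78 for SOCS2 and 1.14 for IL31RA.

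The listed adaptors of receptor signalling and the machinery that sheds receptors from the cell surface, counted together, were mostly higher in H69M. Of 11 genes 8 were higher and 0 lower (0 also at an unadjusted limma p under 0.05). The list median was 0.45, and of all genes 21.0% were higher and 23.2% lower. The 8 held every listed shedding gene but not every adaptor. SHC1, an adaptor of receptor signalling, stood at 9.65, 9.98 and 9.94 in H69M and at 7.82, 7.85 and 7.82 in H69. It rose by 2.03 ± 0.091 (SE, adjusted p = 1.62e-06). RHBDF2 and RHBDF1 encode iRhoms, which bring the sheddase ADAM17 to the surface, with a rise of 1.05 in RHBDF2 (adjusted p = 2.23e-05) and a smaller one in RHBDF1 (adjusted p = 0.000103). The ubiquitin ligase gene CBL rose by 0.86 (adjusted p = 2.48e-05). With each array centred on its median GAB1 and PTPN11 were called lower.

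Most listed STAT3 target genes passed the test, the larger number of them upwards. Of 24 listed genes 15 passed upwards in H69M and 5 downwards, against 21.0% and 23.2% of all genes. Mean levels of 19 of the 24 were above the median of all genes. Without genes below that median, 13 listed genes were higher and 4 lower, against 2718 and 3153 of the 9202 genes left. The list median was 0.42, against -0.041 for all genes. ICAM1, an adhesion molecule for leukocytes, stood at 9.27, 9.65 and 10.47 in H69M and at 5.77, 5.99 and 5.77 in H69. The groups did not overlap, and it rose by 3.96 ± 0.26 (SE, adjusted p = 1.24e-05). The transcriptional repressor BCL6 rose by 2.31 (adjusted p = 1.02e-06), TIMP1, an inhibitor of metalloproteinases, by 2.28 (adjusted p = 3.54e-07) and MYC by 2.11 (adjusted p = 6.08e-07). Falls were found for MUC1, an epithelial surface mucin (-1.45, adjusted p = 2.25e-05), for the kinase genes PIM1 (-0.39, adjusted p = 0.00118) and PIM3 (-0.34, adjusted p = 0.00348), and for FOS (-0.32, adjusted p = 0.0229). The FOS call was lost without H69M replicate 2 (0.0555) or without H69 replicate 1 (0.0667) or 2 (0.0793). Each of these genes is also controlled by factors other than STAT3, and no activity of STAT3 was measured here.

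The acute-phase genes, plasma protein genes that IL-6 switches on in the liver, were dim. Of 18 genes 1 was higher in H69M and 2 were lower (of all genes 21.0% and 23.2%), with a median of -0.050. Mean levels of 16 of the 18 were below the 25th percentile of all genes. With a gene's probe sets averaged, or the dimmest taken, 2 were higher, as they were without H69M replicate 3. With centred arrays 4 were lower, and 1 was with eBayes run with trend or without H69M replicate 2 or H69 replicate 1 or 3. SAA1, serum amyloid A, rose by 0.54 ± 0.12 (SE, adjusted p = 0.00687) to 3.05 in H69M, against 2.51 in H69. SAA1 and SAA2 are near-identical copies, so their split is uncertain. FGL1 fell by 0.42 (adjusted p = 0.0031). A2M, a protease inhibitor, had -0.26 (adjusted p = 0.0412), a call lost without H69M replicate 1 (0.105) or 2 (0.128) or H69 replicate 1 (0.136) or 3 (0.0878), and with trend (0.0616).

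Of 27 measured cytokine receptors outside the family 9 were higher in H69M and 6 lower (of all genes 21.0% and 23.2%), with a median of 0.011. IL7R, the interleukin-7 receptor, was the only one to rise at least 2-fold. It stood at 8.53, 8.84 and 9.05 in H69M and at 4.88, 4.77 and 4.75 in H69, a rise of 4.004 ± 0.12 (SE, adjusted p = 3.01e-07). The shared chain IL10RB rose by 0.93 (adjusted p = 2.75e-05), IFNGR2 by 0.82 (adjusted p = 1.92e-05) and IL13RA1 by 0.78 (adjusted p = 1.52e-05). IL12RB2, a close relative of gp130 in structure, fell by 0.61 (adjusted p = 0.0123), and IL2RG, the shared gamma chain, by 0.39 (adjusted p = 0.00613). IL5RA had -0.36 (adjusted p = 0.037), a call lost without H69M replicate 2 (0.119) or 3 (0.103) or any one H69 array (0.0539 to 0.11). IFNLR1 had -0.30 (adjusted p = 0.0211), a call lost without H69M replicate 1 (0.0542) or 2 (0.0731) or H69 replicate 2 (0.0743). Mean levels of 11 of the 27 receptors were below the 25th percentile of all genes, those of IL12RB2 and IL5RA among them. When each array was left out in turn 6 to 7 receptors were called higher and 2 to 4 lower, and with centred arrays 6 were higher and 10 lower.

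**Figure D4:**
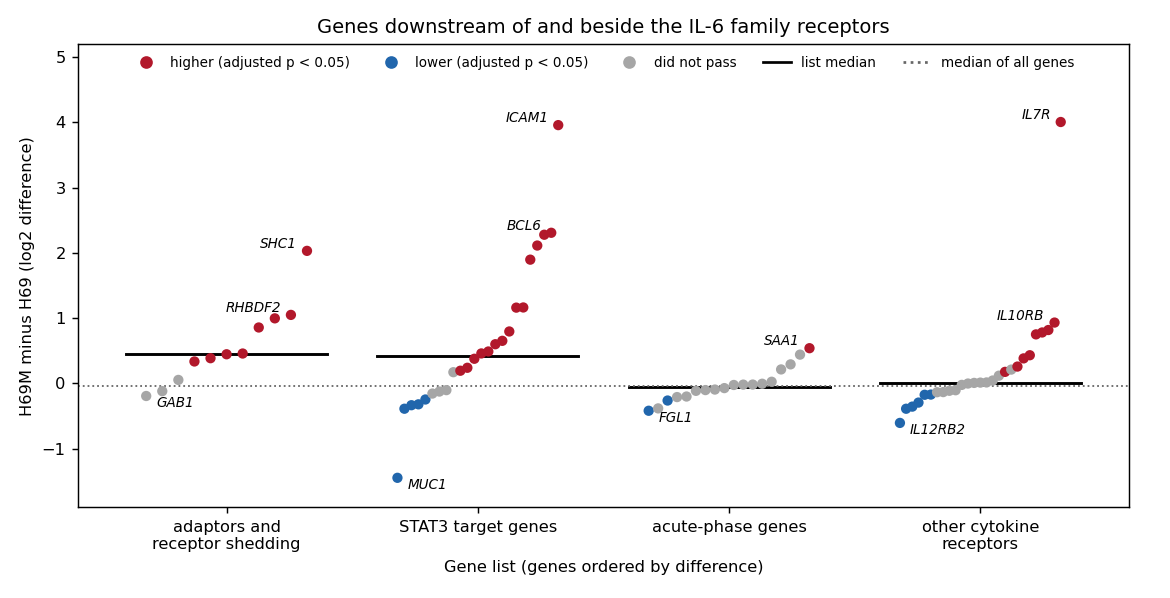
Log2 differences, H69M minus H69, of single genes in 4 lists, ordered by difference, in red where higher, blue where lower and grey where the limma test did not pass, with a black line for the list median and a dotted line for the median of all genes. The list medians are 0.45 for adaptors and receptor shedding, 0.42 for STAT3 target genes, -0.050 for acute-phase genes and 0.011 for other cytokine receptors, with ICAM1 and IL7R near 4.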

How the data were processed

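The deposited log2 values per probe set (32321 probe sets, 6 arrays) were used as the authors made them. RMA and limma are named, with no version, in the submitters' processing notes. For the program behind RMA and for a genome build, the entry is: not given in the sources used here. Genes were named from the platform annotation: 19158 probe sets had 1 symbol, 1388 had several and 11775 had none listed. The probe set with the highest mean represented each of 18404 genes. H69M and H69 were compared with limma 3.58.1 in R 4.3.3 (lmFit, eBayes, two-sided) on all genes, with Benjamini-Hochberg adjustment over all of them and a threshold of 0.05; the code was tested on simulated data. Each p-value reflects only how far these arrays differ within a line, possibly for technical reasons, and 3 arrays a line limit the precision.

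The family genes and the lists were chosen with earlier results of these data known. Named were all 10 family genes, any gene of the 3 lists nearest to them, up to 4 largest rises and falls past the threshold of each other list, and genes among the 3 nearest profiles and the 2 neighbours on each side. Gene order came from RefSeq (GRCh38.p14), without coordinates, and promoter letters from its table. Python 3.11.15 drew the figures. Alternatives were a replicate block, centred arrays, quantile normalization again, filters on dim genes, array weights, eBayes run robustly or with trend, other probe set rules, and leaving out single arrays.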

Additional observations from a re-analysis of the deposited data

Results flagged for a closer look

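Of 6 probe sets that the comparison did not use, but that carry a symbol of a listed or neighbouring gene, 3 were above every H69 array on every H69M array. Among all genes compared, the same was so for 25.8%. The second SAA2 probe set (8180303) stood at 5.62, 5.25 and 6.52 in H69M and at 4.01, 4.18 and 4.17 in H69, a log2 difference of 1.68, whereas the SAA2 probe set used had 0.29 and the one shared by SAA2 and SAA1 (7946986) had 0.095, with overlap. The probe set shared by LEPROT and LEPR, the leptin receptor (7902074), had 6.05 ± 0.046 in H69M and 5.47 ± 0.046 in H69 (log2, SD, n = 3), a difference of 0.59. The second probe set of BIRC5, the apoptosis inhibitor survivin (8018860), had 5.92 ± 0.058 in H69M and 5.70 ± 0.096 in H69 (log2, SD, n = 3), a difference of 0.22, and the probe set used had 0.19. The other 2 were a second GAB1 probe set (8102982), with -0.16 and overlap, and one shared by CNTF and ZFP91 (7940118), with -0.13 and all H69M arrays below.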

How the results depend on the processing

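All 10 family genes kept the sign of their log2 difference under the alternatives that held them, and only STAT3 moved by more than its replicate SD (-0.16 with centred arrays, -0.11 with quantile normalization again). Filters on dim genes removed LIF and IL6 (25th percentile) and 7 of the 10 genes (median). Same-numbered arrays did not deviate together (r 0.0072 to 0.021). With the replicate block, 3617 genes were higher and 4021 lower, with 0 JAK and STAT genes, 3 cytokine receptors and 1 other ligand or receptor of the family lower. With arrays centred, 6827 of all genes were lower, and in the lists 2 JAK and STAT genes, 4 acute-phase genes, 2 adaptors, 10 cytokine receptors and 2 other ligands or receptors; with quantile normalization again these lists gave 2 JAK and STAT genes, 1 adaptor and 2 other ligands or receptors lower. Array weights gave 1 adaptor lower and eBayes with trend 1 acute-phase gene lower. The 25th percentile filter left 0 acute-phase genes higher, 0 lower and 3 cytokine receptors lower. The median filter left 0 and 0 acute-phase genes, 5 cytokine receptors higher and 0 lower, and 1 other ligand or receptor higher. Averaging a gene's probe sets, or taking the dimmest, gave 2 acute-phase genes higher. Leaving out each array in turn gave 0 to 1 JAK and STAT genes lower, 1 to 2 acute-phase genes higher and 1 to 2 lower, 0 to 1 adaptors lower, 2 to 4 cytokine receptors lower and 0 to 2 other ligands or receptors lower. The other list counts were within 1.5 times the main count. Among named genes of the lists, 37 of 813 values lost a call, 12 gained one and 0 called values changed sign. Dim genes such as LIF and IL6 carry no detection call.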

Other observations

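Other cytokine receptor genes also lie on the short arm of chromosome 5, a group chosen after its values were seen and given no test of its own. In chromosome order, PRLR, the prolactin receptor, had a log2 difference of 0.43, IL7R 4.004, LIFR 3.58, OSMR 4.48 and GHR, the growth hormone receptor, 0.12. Between IL7R and OSMR lie 13 measured genes outside the family list, of which limma called 1 higher and 4 lower in H69M, with differences from -0.48 to 0.54 and a median of -0.095. DAB2, the fourth measured gene beyond OSMR, had 6.13.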
